A study of Mus musculus with 4 samples.

Results

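Type 2 conventional dendritic cells (cDC2) of the mouse heart were selected from 4 droplet single-cell RNA libraries, 382 cells of 17312 that passed the submitters' filters and of 27968 barcodes in all. A barcode passed if UMIs (unique molecular identifiers, which tag single RNA molecules) numbered below 30000, if under 10% of them were mitochondrial, and if between 500 and 7000 genes were detected, both ends excluded. The submitters state 38066 barcodes before and 17438 after these filters. A passing cell was taken as a cDC2 where at least 4 of 8 genes, Cd209a, Klrd1, Flt3, Dpp4, Kmo, Napsa, Ccl17 and Klrb1b, each had 1 or more UMI, and where the complement genes C1qa, C1qb and C1qc together stayed below 10 UMIs per 10000. The values of these 11 genes therefore chose the cells and are given only as a description.

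The study asked how a DNA-damaging chemotherapy, given weeks earlier, affects the phagocytes of the heart, at rest and under a hypertensive load. The mice were adult, and no strain, genotype or exact age was given in the sources used here. PBS saline mice received PBS injections and a saline minipump; carboplatin saline mice received carboplatin at 45 mg/kg, 2 injections a week for 2 weeks, and the same pump. PBS AngII/PE and carboplatin AngII/PE mice had the respective injections and a pump that delivered angiotensin II at a daily 1.5 mg/kg together with 50 mg/kg of PE, an abbreviation the labels do not spell out. Between injections and pump lay a recovery of 4 weeks, and all hearts were taken on day 7 of the pump.

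Each group is 1 library, made from the pooled hearts of 5 mice of mixed sex, with 10000 cells loaded. Before loading, cells were sorted as CD64+ cardiac phagocytes (CD45+, CD11b+, Ly6G negative, Ly6C low). No replicate spread exists, so no difference below has a test. Every interval is a 95% interval of counting error alone, and the 5 mice of a library cannot be separated. The 4 comparisons also share libraries pairwise (the PBS saline library, for example, is the control of both a carboplatin and an AngII/PE comparison).

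Conventional dendritic cells take up antigen in tissues, load it on major histocompatibility complex (MHC) molecules and carry it to lymph nodes, where they prime T cells. The type 2 subset depends on the growth factor receptor FLT3 and on transcription factors such as IRF4, presents mainly on MHC class II to CD4 T cells, and is distinguished from the type 1 subset, which cross-presents to CD8 T cells and carries XCR1 and CLEC9A. In the heart, dendritic cells are a small population beside the resident macrophages, from which they are told apart by the transcription factor ZBTB46 and by low complement C1q, MERTK and CD64.

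The cells carried Zbtb46 and Irf4, genes of conventional dendritic cells that had not been used to choose them. Levels are given in CPM, the UMIs of a gene per 1000000 UMIs summed over all cDC2 of a library, with the saline pair first and the AngII/PE pair second, PBS before carboplatin in each. For comparison, the same level is given in C1q-high cells, the passing cells with 10 or more C1q UMIs per 10000, which are macrophage-rich; since C1q set these classes apart, a contrast between them is a description. Zbtb46 stood at 139, 182, 160 and 130 CPM in cDC2, and at 15, 8.03, 5.63 and 4.22 in C1q-high cells. Irf4 was at 90.2, 106, 67.7 and 74.8 in cDC2, above the C1q-high cells in every library. The 14 dendritic cell identity genes listed, with the selecting gene Flt3, summed to 1851, 2030, 2194 and 2042 in cDC2. In C1q-high cells they summed to 525, 645, 580 and 494. The 25 cDC2-associated genes listed differed less between the classes. They summed to 7476, 6653, 7752 and 9045 in cDC2 and to 6330, 6374, 6190 and 6677 in C1q-high cells. Of the macrophage genes, Mertk, which encodes a receptor for apoptotic cells, was at 2.98, 3.85, 25.6 and 12 CPM in cDC2, against 201 to 377 in C1q-high cells.

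Further genes set the cells apart from C1q-high cells by a like amount in all 4 libraries. Bhlhe40, a transcription factor gene, was higher in cDC2 by 3.76 to 4.00 on the log2 scale (5 CPM added to both sides). Itgb7, an integrin subunit of gut and tissue homing, was higher by 3.66 to 4.10, Cd24a by 3.62 to 4.00 and Bcl11a, a dendritic cell transcription factor gene, by 3.54 to 4.36. H2-Oa, a subunit of the peptide-loading modulator H2-O, was higher by 3.56 to 4.82. At the other end stood Apoe, the lipid carrier of macrophages, with -5.77 to -5.43. Of 5966 genes compared in this way, 253 were 2-fold or more above C1q-high cells in all 4 libraries and 176 were 2-fold or more below.

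CD64 itself, the antigen of the sort, is encoded by Fcgr1, which stood at 15.3, 11.6, 45.7 and 66.6 CPM in cDC2 and at 146 to 266 in C1q-high cells. With every cell thinned to 2000 UMIs, to set aside depth, 2.42%, 2.70%, 6.73% and 8.86% of cDC2 held an Fcgr1 UMI, against 16%, 13.5%, 40.4% and 51.9% without thinning. Endothelial-like cells, which lack CD64, held one in 0.92%, 0.23%, 0.75% and 0.39% of thinned cells. The cDC2 shares in the AngII/PE libraries thus lay above that background and below the 29.9% and 36.4% of thinned C1q-high cells there. The sort selects on this protein, so the numbers of cDC2 below are numbers within the gate, not in the heart.

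The selecting genes were not equally strong. Cd209a, a C-type lectin receptor gene, gave 1491, 1083, 1564 and 1470 CPM and was detected in 79.7% to 91.1% of the cells. Napsa, an aspartic protease gene, was detected in 92.8% to 100% of the cells and Klrd1, which encodes CD94, in 58.1% to 84.8%. Ccl17, a chemokine gene for CCR4-bearing T cells, had a UMI in 12.7% to 21.6% of cells, and a single cell held 36.0% to 42.1% of its UMIs. Of the 382 cells, 59 held exactly 4 of the 8 genes, 73 held 5, 105 held 6, 132 held 7 and 13 held all 8.

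Just inside the threshold, with 4 genes, were 21, 18, 15 and 5 cells, and just outside it, with 3 genes and the same C1q limit, were 25, 53, 23 and 12. Mgl2 is a C-type lectin gene that was not part of the rule. It was at 359, 409, 227 and 422 CPM just inside and at 120, 92.7, 79.2 and 65.8 just outside. Its level in C1q-high cells is not given here, so Mgl2 is not read as particular to cDC2. Zbtb46 was at 104, 149, 198 and 191 inside and at 113, 63.6, 62.2 and 107 outside. A further 23, 21, 93 and 64 passing cells held at least 4 of the genes but were set aside for their C1q.

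The cells were deeply read. Their summed UMIs were 2349874, 1298538, 1639605 and 1336823, with a median of 20350, 20083.5, 16694 and 17656 UMIs per cell. The median over all passing cells was 10593 to 12737. The cDC2 with exactly 4 of the selecting genes had medians of 7902, 8296, 5810 and 13307. The depth is therefore not read as a trait of cDC2. No barcode was shared between libraries among cDC2, and 34 were among all passing cells. Cells called by sex genes were 55.1%, 58.5%, 25% and 59.7% female among cDC2 and 48.7%, 52.7%, 30.3% and 51.1% among C1q-high cells, so that the PBS AngII/PE library was the one with mostly male cells. A difference that involves that library cannot be told apart from the mix of sexes except where a value within 1 sex is given. The called cDC2 were 54, 38, 23 and 43 female and 44, 27, 69 and 29 male cells, with 27, 9, 12 and 7 uncalled. Values within 1 sex therefore rest on few cells.

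Markers of other cells were present at levels that differed between libraries. The 15 macrophage genes listed summed to 1342, 1008, 1494 and 1572 CPM in cDC2 and to 30930, 23362, 43544 and 47170 in C1q-high cells. This list holds the C1q genes of the rule. More than 50% of it was detected in 42 of 125, 13 of 74, 38 of 104 and 48 of 79 cDC2, most often in carboplatin AngII/PE. Within that list, Apoe was at 197, 111, 416 and 472 and Ms4a7, a macrophage surface gene, at 6.81, 3.08, 31.7 and 50.1 in cDC2. In C1q-high cells Ms4a7 was at 301, 356, 1576 and 1784, so both classes were higher under AngII/PE. The median C1q level of a cDC2 was 1.38, 1.63, 2.37 and 3.30 UMIs per 10000. Endothelial-like cells had 1.77 to 3.22 in the same libraries. Both classes were chosen under the same C1q limit of 10 per 10000, so low values in both were set in advance. The 9 B cell genes summed to 523, 782, 131 and 166, and 3, 4, 0 and 0 cells held more than 50% of them. The 7 mast cell and basophil genes had no UMI, the 8 neutrophil genes summed to 5.39 to 10.4, and the 14 NK and T cell genes to 23.2 to 65.9 (Cd3e 1 UMI in all). The 9 classical monocyte genes summed to 867, 821, 476 and 492, lower in both AngII/PE libraries. Of that list, Ccr2 held most, Plac8 stood at 71.9, 169, 2.44 and 23.2, Fn1 at 103, 53.1, 7.32 and 52.4, F13a1 at 91.5, 47.0, 47.0 and 15.7 and the defining gene Ly6c2 at 5.53, 6.93, 0 and 12. The part of these cells' RNA in the results below was not tested unless a value is given.

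cDC2 made up a small and unequal part of the sorted cells. There were 125 of 4310 passing cells in PBS saline (2.90%, exact interval 2.42 to 3.45%) and 74 of 3484 in carboplatin saline (2.12%, 1.67 to 2.66%). In PBS AngII/PE there were 104 of 3849 (2.70%, 2.21 to 3.26%) and in carboplatin AngII/PE 79 of 5669 (1.39%, 1.10 to 1.73%). The share was lowest after carboplatin with AngII/PE, where its interval met that of carboplatin saline and lay below those of both PBS libraries. The intervals of the other 3 libraries overlapped with each other. Per 100 C1q-high cells there were 3.84, 3.08, 3.29 and 1.54 cDC2.

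Under AngII/PE, the share after carboplatin was 0.516 times that after PBS (counting interval 0.386 to 0.689). The ratio was below 1 under every alternative rule and setting tried, 0.403 to 0.750, but among female cells its interval reached past 1 (0.750, 0.454 to 1.24). After carboplatin, the share under AngII/PE was 0.656 times that under saline (0.479 to 0.898; 0.404 to 0.812 under alternatives, with intervals that reached past 1 for 5 of 8 genes, doublet limits, male cells and cells free of other classes' genes). After PBS the ratio for AngII/PE was 0.932 (0.721 to 1.20). Under saline the carboplatin ratio was 0.732 (0.551 to 0.973), but it was 1.05 with 3 of 8 genes required and 0.962 with cells thinned to 2000 UMIs, so no direction is read from it. Fewer cDC2 and more of the other sorted cells cannot be told apart in a share.

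**Figure D1:**
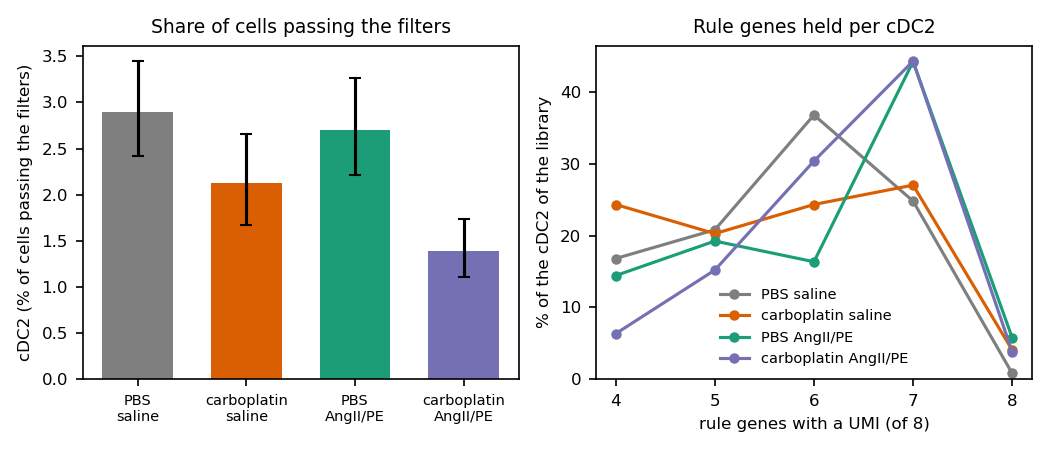
Left, cDC2 as a percentage of the cells that passed the filters, 1 bar per library, with exact 95% intervals of counting error. Right, percentage of the cDC2 that held 4 to 8 of the selecting genes. The carboplatin AngII/PE bar, at 1.39%, is the lowest.

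Expression was compared over 6237 genes that averaged 20 CPM or more in the 4 libraries. The ratio of 2 libraries is called here where it is at least 2-fold for single genes and at least 1.5-fold for members of a gene list, and a list is read against the share of all 6237 genes past the same fold. Genes named for their ratio are the ends of the ranking after some genes were removed. Among those removed were genes led by 1 cell, and genes more than 3 times higher in another cell class over the 4 libraries together. Genes higher in another class by less than that were kept, Cd163 for example. Genes not named for their ratio come from lists of known function, of which the members under the 20 CPM minimum were not compared.

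Between AngII/PE and saline after PBS, a small part of the genes differed by 2-fold or more. Against saline, 143 genes (2.29%) were higher by 2-fold or more and 152 (2.44%) were lower by as much. After carboplatin, 190 (3.05%) were higher and 537 (8.61%) lower. There the median of all genes was at -0.13 on the log2 scale, and with scaling by the median ratio, which moves it to 0.00, the counts were 299 and 352, with 54.1% of called genes lower in place of 73.9%. Ratios of that comparison are given and called below without this scaling, and each is to be seen beside the median of -0.13.

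Dscam, which encodes a large cell adhesion molecule of the immunoglobulin superfamily (chromosome 16, 96590840 to 97170752, minus strand, GRCm38), had the largest ratio shared by both AngII/PE comparisons. It gave 11, 3, 344 and 207 UMIs, that is 4.68, 2.31, 210 and 155 CPM. Both AngII/PE libraries were high and both saline libraries low, with a UMI in 50% and 44.3% of the cells against 4% and 2.7%. The AngII/PE ratio was 44.8-fold after PBS (24.7 to 90.6) and 67.0-fold after carboplatin (22.6 to 328, against 3 UMIs). C1q-high cells held 0.787, 0.9, 5.46 and 3.19 CPM of Dscam, and the top cell held 8.72% and 7.73% of the UMIs in the AngII/PE libraries. Ffar2, a receptor for short-chain fatty acids, gave 1, 5, 62 and 58 UMIs, an 88.9-fold ratio after PBS with a counting interval of 15.4 to 3566, and was found in 29.8% and 34.2% of cells under AngII/PE.

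In the list of cDC2-associated genes, 3 were far higher under AngII/PE in both pairs. Ifitm1, an interferon-induced membrane protein gene (chromosome 7, 140967221 to 140969825, plus strand), stood at 7.23, 5.39, 65.9 and 92.8 CPM, a log2 ratio of 3.19 after PBS and 4.10 after carboplatin. Ltb, which encodes lymphotoxin beta (chromosome 17, 35194439 to 35196320, plus strand), stood at 12.8, 25.4, 98.2 and 89.0, or 2.94 and 1.81. Il1r2, the decoy receptor of interleukin 1, stood at 68.1, 97.8, 246 and 254, or 1.86 and 1.37. In none of them did the saline and AngII/PE libraries overlap, and in C1q-high cells all 3 stayed at or below 10.7 CPM.

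The share of cells with these transcripts differed in the same way at equal depth. With cells thinned to 2000 UMIs, Ifitm1 was found in 0.81%, 0%, 9.62% and 12.7% of cDC2 (unthinned 8%, 5.41%, 28.8% and 29.1%), with exact intervals of 4.71 to 17% and 6.24 to 22.1% under AngII/PE. The 0 of 74 cells allows a share of cells with a UMI of up to 4.05% (3 cells), which is no limit on cells that express the gene. Ltb was found in 4.03%, 6.76%, 16.3% and 20.3% of thinned cells (unthinned 9.6%, 18.9%, 48.1% and 51.9%) and Il1r2 in 7.26%, 16.2%, 28.8% and 30.4% (unthinned 31.2%, 40.5%, 59.6% and 70.9%). Endothelial-like cells held each of the 3 in at most 0.93%. Over the whole list of 20 measured cDC2-associated genes, 5 were at least 1.5-fold higher after PBS and 9 after carboplatin, where 7.49% and 12.4% of all genes were. At least 1.5-fold lower were 0 and 2 (Notch2 and Zeb2), where 8.98% and 24.7% of all genes were. Fcer1g, H2-DMb2, Bcl2a1d, Clec10a, Clec4a2 and S100a4 made up the rest of the higher genes after carboplatin, and Relb and H2-DMb2 after PBS. The list medians were 0.11 and 0.48, beside -0.03 and -0.13 over all genes.

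The dendritic cell identity genes differed less. Of 12 measured, which include the selecting gene Flt3, 2 were at least 1.5-fold higher in each AngII/PE comparison and 1 lower. Of all genes, 7.49% and 12.4% were higher and 8.98% and 24.7% lower by as much. After PBS, Kit (0.69) and Traf1 (0.92) were higher and Nfil3 (-0.99) lower. After carboplatin, Kit (0.85) and Id2 (1.11) were higher and Bcl11a (-0.62) lower. Zbtb46 had log2 ratios of 0.20 and -0.48. Its thinned share was 32.3%, 33.8%, 30.8% and 15.2%, from 75.2%, 77%, 80.8% and 77.2% unthinned, and thinned C1q-high cells held it in 2.62%, 1.39%, 1.09% and 0.85%. Endothelial cells express this gene too (28.2% to 40.5% of thinned endothelial-like cells), so they give no background for it. The selecting genes are given as a description: Klrd1 had log2 ratios of 1.00 and 1.38, Napsa of 0.56 and 1.15, Flt3 of 0.41 and -0.16, Dpp4 of 0.43 and -0.03, Klrb1b of 0.42 and 0.14, Cd209a of 0.07 and 0.44, Kmo of 0.28 and 0.16, and Ccl17 of 0.36 and 0.94.

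**Figure D2:**
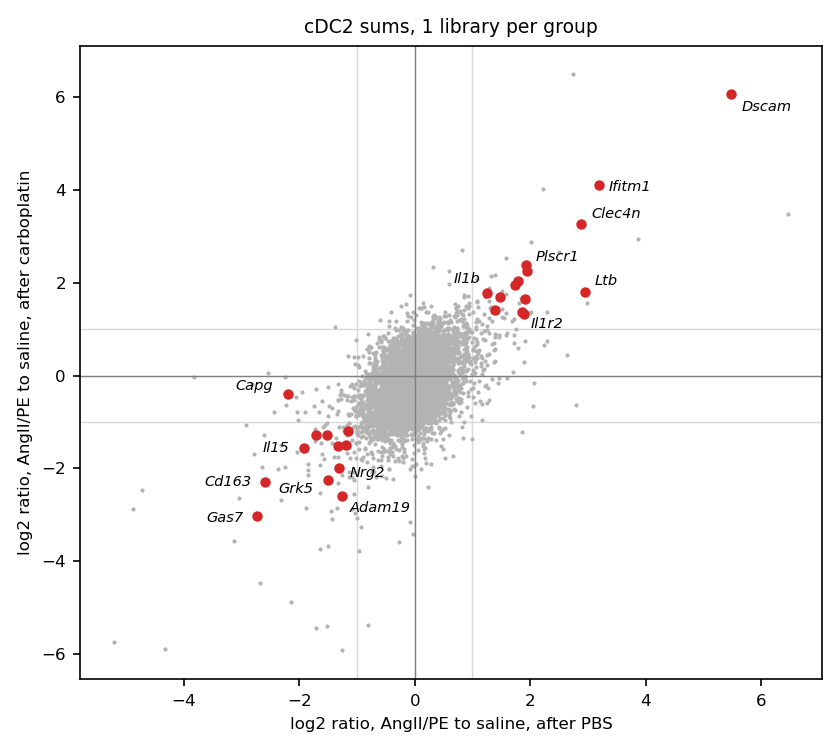
Log2 ratio of AngII/PE to saline after PBS (horizontal) and after carboplatin (vertical), 1 point per compared gene, with named genes in red. Dscam lies farthest to the upper right, at 5.49 and 6.07, and most genes lie within 1 of 0 on both axes.

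The same pump in the 2 backgrounds can be set side by side, since these comparisons share no library. Across 6236 genes the log2 ratios had r = 0.552; genes are not independent replicates and each comparison has its own 2 libraries, so no p is given. At least 1.5-fold higher in both were 210 genes, 45.0% of those higher after PBS and 27.2% of those higher after carboplatin. At least 1.5-fold lower in both were 341, 60.9% and 22.1%, and 41 genes went opposite ways. After the removal of genes by the limits given above for ranked genes, 112 and 152 remained. Among the highest were Dscam, Plscr1, Ggt5, Abi3, Lsr, Siglece and Basp1, and the 8 lowest were Grk5, Cyp51, Nrg2, Ccdc171, Nhsl2, Adam19, Myof and Arhgap6.

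Plscr1, a phospholipid scramblase gene, stood at 79.6, 77, 307 and 365 CPM, 3.86-fold higher after PBS (3.25 to 4.58) and 4.74-fold after carboplatin (3.82 to 5.94). C1q-high cells had log2 ratios of 1.47 and 0.96 for it. Ggt5, whose enzyme cleaves glutathione conjugates such as leukotriene C4, stood at 10.2, 6.16, 39.0 and 32.2, and Siglece, an inhibitory sialic acid receptor gene, at 18.3, 20.0, 68.9 and 62.8. For these 2 genes the C1q-high log2 ratios lay between -0.23 and 0.23. Basp1 stood at 115, 99.3, 322 and 321. Of the lower genes, Grk5, a kinase of G protein-coupled receptors, stood at 152, 147, 53.7 and 30.7 and Arhgap6, a GTPase-activating protein gene, at 324, 337, 145 and 147; both were also lower in C1q-high cells, by 1.12 to 1.31 on the log2 scale.

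At the low end after PBS were Upb1 (114 UMIs under saline and 3 under AngII/PE, a 26.5-fold ratio with an interval of 8.85 to 130), Celf4 (8.74-fold lower, 5.33 to 15.3) and Gas7 (6.69-fold, 5.27 to 8.60). Cd163, the haemoglobin scavenger receptor of macrophages, stood at 88.5, 43.9, 14.6 and 8.98 CPM, 6.05-fold lower (3.95 to 9.65). For Celf4, Gas7, Cd163, Gfra2, Rfx2, Dok2 and Upb1 the C1q-high cells had log2 ratios of -3.96 to -1.64 in the same comparison, and Cd163 stood at 342, 44.2, 62.5 and 30.3 CPM there. The part of macrophage RNA in these 7 ratios was not tested. Capg, an actin-capping protein gene, differed between the classes: it was 4.60-fold lower in cDC2 (3.63 to 5.91; 222, 165, 48.2 and 125 CPM) while its C1q-high log2 ratio was 0.49. Lmna, the lamin A gene, was lower by 2.03 and Il15 by 1.91 on the log2 scale.

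The high end after PBS further held Cd300lf, Cd72, Rgs1, Il21r and Tnf, with log2 ratios of 1.89 to 2.01. After carboplatin it held Spint1 (2.17), Ebpl (1.99), Ccrl2 (1.79), Il1b (1.77) and Mrpl55 (1.74). The low end after carboplatin was led by Nlrp1b, an inflammasome sensor gene, at 195, 289, 98.2 and 34.4 CPM, 8.39-fold lower (6.17 to 11.7); the C1q-high log2 ratio was -2.35. Adam19 (-2.59), Cdk8 (-2.41), Grk5 (-2.26), Zfp951 (-2.23), Pde4d (-2.22), Tmem87a (-2.08), S100pbp (-2.02), Vps37a (-2.01) and Nrg2 (-2.0) completed it. Nrg2, lower by 1.30 after PBS, was at 0.035 there among male cells.

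Antigen presentation on MHC class II is the function by which cDC2 are known. Under AngII/PE its genes were lower in C1q-high cells by the list median in both comparisons, and in cDC2 the median was near 0 after PBS and higher after carboplatin. H2-Aa, an alpha chain, stood at 9085, 8102, 10114 and 12334 CPM in cDC2 and at 6815, 8554, 3507 and 2963 in C1q-high cells. Cd74, the invariant chain, stood at 28492, 22888, 28456 and 34524 in cDC2. Both were highest in the carboplatin AngII/PE library and lowest in carboplatin saline.

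Of 13 measured MHC class II genes, 3 were at least 1.5-fold higher after PBS and 7 after carboplatin (7.49% and 12.4% of all genes were), and none was lower in either (8.98% and 24.7%). The 7 were Cd74, Ctss, H2-Aa, H2-DMb1, H2-DMb2, H2-Oa and Ifi30. The list medians were 0.16 and 0.59 in cDC2 (0.51 to 1.01 under alternatives after carboplatin) and -0.81 and -1.24 in C1q-high cells. H2-DMb2, a chain of the peptide exchanger H2-DM, stood at 218, 202, 337 and 450, or 0.62 and 1.16, although among female cells the ratio after PBS was -0.02. H2-Oa stood at 98.3, 126, 201 and 221, or 1.03 and 0.81. Ciita, the master regulator of these genes, did not go with them: it stood at 433, 484, 484 and 349, or 0.16 and -0.47.

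The span of a gene in the genome went along with these ratios. The 1559 genes of the shortest span (under 12.3 kb) had a median log2 ratio for AngII/PE of 0.35 after carboplatin, and the 1559 genes of the longest span (over 70.0 kb) of -0.59; after PBS the medians were 0.07 and -0.15. Of the longest, 18.9% were 2-fold or more lower after carboplatin, against 2.25% of the shortest. C1q-high cells showed medians of 0.36 and -0.30 for the same genes. Ribosomal protein genes took 14.1%, 13.2%, 14.7% and 16.2% of the cDC2 UMIs and the nuclear RNA Malat1 took 1.46%, 1.94%, 1.54% and 0.994%. The part of gene span and RNA composition in the list medians of the carboplatin AngII/PE library was not tested.

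Among 17 measured MHC class I genes, H2-Q7 alone was at least 1.5-fold higher after carboplatin both under saline and under AngII/PE, H2-Q6 passed that size under saline only, and the others, B2m included, differed by less. H2-Q7, a non-classical class I gene, stood at 60.4, 111, 49.4 and 92.8 CPM, 0.88 higher on the log2 scale after carboplatin under saline and 0.91 under AngII/PE. In C1q-high cells it stood at 74.7, 141, 62.2 and 114, or 0.91 and 0.88. B2m, the common light chain, stood at 963, 1294, 951 and 1383, or 0.43 and 0.54. Both carboplatin libraries were above both PBS libraries for these 2 genes, in each cell class. H2-Q6, a near-identical relative of H2-Q7 with which reads may be shared, stood at 40.4, 70.8, 45.1 and 59.1.

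Of the 17 class I genes, 2 were at least 1.5-fold higher after carboplatin under saline (4.2% of all genes were) and 1 under AngII/PE (4.35%), and none was lower (3.4% and 11.7% of all genes were). The medians were 0.34 and 0.44, against 0.01 and -0.07 over all genes, and 0.43 in C1q-high cells in both comparisons. In the AngII/PE comparisons 0 were higher (7.49% and 12.4% of all genes) and 2 lower (8.98% and 24.7%) in each, with medians of -0.06 and 0.10. Nlrc5, the class I transactivator gene, was among the lower ones, with -0.90 and -0.81.

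**Figure D3:**
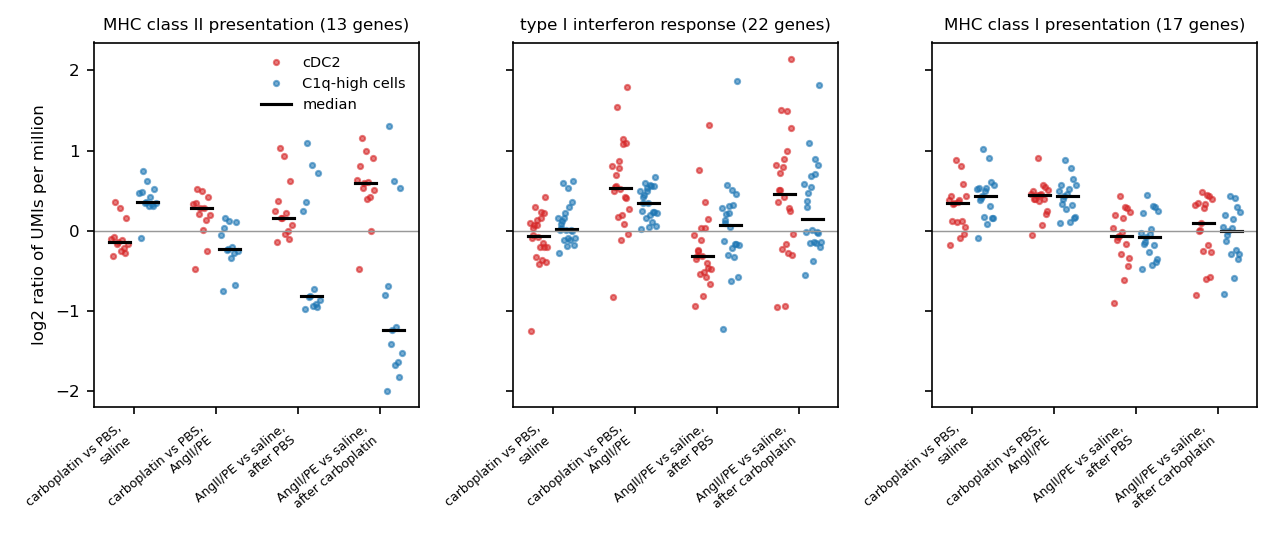
Log2 ratios of the measured genes of 3 lists (MHC class II, type I interferon response and MHC class I) in the 4 comparisons, with the list median as a bar, in cDC2 (red) and C1q-high cells (blue). The class II medians of the classes part under AngII/PE (0.59 and -1.24 after carboplatin), and the class I medians of both lie between 0.34 and 0.44 after carboplatin.

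Among costimulators and inflammatory cytokines, Il1b, Tnf, Cd86, Tnfsf9 and Pvr were at least 1.5-fold higher under AngII/PE in both comparisons. Il1b, the interleukin 1 beta gene, stood at 335, 270, 795 and 923 CPM, a log2 ratio of 1.25 after PBS and of 1.77 after carboplatin (3.41-fold, 3.03 to 3.86). It went the other way in C1q-high cells, with -0.36 and -0.67. Tnf stood at 56.6, 94.0, 210 and 234, or 1.89 (3.72-fold, 3.04 to 4.58) and 1.32, and its C1q-high ratios were 0.34 and 0.21. Both cytokine genes had non-overlapping saline and AngII/PE libraries.

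Cd86, a ligand of CD28 on T cells, stood at 298, 358, 674 and 619, or 1.18 and 0.79, while C1q-high cells stood at 719, 644, 499 and 518. Tnfsf9, the 4-1BB ligand gene, stood at 123, 95.5, 235 and 282. Pvr, the ligand of the receptor TIGIT, was higher by 0.73 and 0.75. Il15, a cytokine gene that sustains NK and memory T cells, was lower instead, at 52.8, 59.3, 14.0 and 20.2, or -1.91 (3.76-fold lower, 2.40 to 6.15) and -1.55. Of 13 measured genes of this list, 7 were at least 1.5-fold higher in each AngII/PE comparison and 1 and 2 lower, the lower ones being Il15 and, after carboplatin, also Havcr2 (all genes: 7.49% and 12.4% higher, 8.98% and 24.7% lower). Cd83 (0.26 and -0.32) and Icosl (0.38 and -0.29) were among those that did not pass. The medians were 0.60 and 0.63, and 0.21 and -0.16 in C1q-high cells.

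Among chemokine genes, Ccl3 and Ccl4, which encode inflammatory chemokines, were higher under AngII/PE in both classes of cells. Ccl3 had log2 ratios of 1.31 and 1.46 in cDC2 and of 1.10 and 1.05 in C1q-high cells, and Ccl4 of 1.20 and 1.33 and of 0.85 and 0.78. Of 10 measured chemokine genes 5 and 6 were at least 1.5-fold higher (7.49% and 12.4% of all genes) and 2 and 1 lower (8.98% and 24.7%). The selecting gene Ccl17 is one of these 10 genes and, after carboplatin, one of the 6. Their medians of 0.78 and 0.77 turned to -0.24 after PBS without cells rich in another class's genes and to -0.07 after carboplatin among female cells, so no direction is read for the list. Ccl22 rested on few cells: 33 of its 48 UMIs in PBS AngII/PE came from 1 cell. Of 7 chemokine receptor genes 1 was higher in each AngII/PE comparison (Cx3cr1 after PBS and Ccr1 after carboplatin) and none lower. Of all genes, 7.49% and 12.4% were higher and 8.98% and 24.7% lower by 1.5-fold. Ccr2, the receptor for CCL2, stood at 581, 519, 399 and 370.

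Among lectin and pattern-sensing genes, Clec4n, which encodes dectin 2, a receptor for fungal mannans, stood at 16.2, 23.9, 120 and 230 CPM, a log2 ratio of 2.89 after PBS and 3.27 after carboplatin. It had a UMI in 20%, 20.3%, 43.3% and 59.5% of the cells. C1q-high cells held 88.0, 90.9, 198 and 224, with ratios of 1.17 and 1.30, so the cDC2 level was below theirs in 3 libraries and near it in the fourth. The part of macrophage RNA in the Clec4n ratio was not tested. Of 14 measured genes, which include the selecting gene Cd209a, 3 and 6 were higher (7.49% and 12.4% of all genes) and 2 each lower (8.98% and 24.7%); Mrc1, the mannose receptor gene, was among the lower ones after PBS (-1.08) and Tlr2 was higher by 0.59 and 1.30.

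Receptors and signal transducers of growth factors and cytokines had 6 of 21 genes, the selecting gene Flt3 among the 21, at least 1.5-fold higher in each AngII/PE comparison (7.49% and 12.4% of all genes) and 0 and 1 lower (8.98% and 24.7%). Socs3, a feedback inhibitor of cytokine receptors, stood at 344, 239, 737 and 663, or 1.10 and 1.47. Il4ra (0.83 and 0.80), Ifngr1 (0.72 and 0.64), Kit and Il1r2 were higher in both. Lower in the carboplatin pair was Stat5a, with -0.87. A pair of genes of hormone and flow responses were lower under the pump in cDC2 in both backgrounds: Klf2, at 323, 237, 104 and 62.1 CPM, and Sgk1, at 59.6, 69.3, 16.5 and 15.7. Sgk1 had ratios of -1.86 and -2.14 in cDC2 but of 0.66 and 0.63 in C1q-high cells. Fkbp5, a glucocorticoid-induced gene, was higher by 1.51 and 1.82, but among female cells the ratio after PBS was -0.08. In C1q-high cells Fkbp5 was higher too, by 1.69 and 2.15. Most of its list of glucocorticoid and circadian genes did not go with it. Tsc22d3 had ratios of -0.64 and 0.07, Per1 of -0.21 and -0.64, Zbtb16 of 0.42 and -1.10, and Klf9 of 0.29 and -0.40. Sgk1 is in that list as well, and Bhlhe40 was higher by 0.45 and 0.78.

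**Figure D4:**
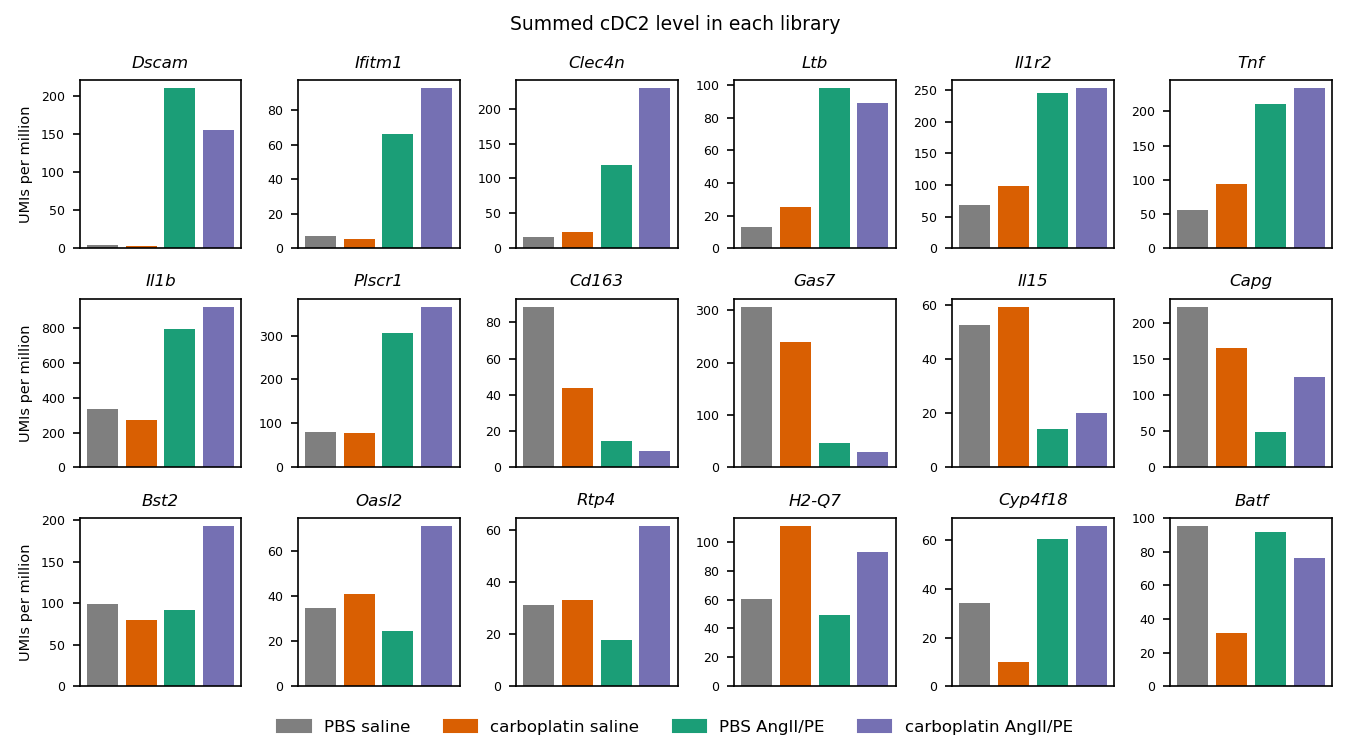
Levels of 18 named genes in the cDC2 of each library, as CPM, 1 bar per library. Dscam, Ifitm1, Clec4n, Ltb, Il1r2, Tnf, Il1b and Plscr1 have both AngII/PE bars above both saline bars, and Cd163, Gas7 and Il15 the reverse; Bst2, Oasl2 and Rtp4 are highest in the carboplatin AngII/PE library.

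Between carboplatin and PBS under saline there were few large differences in cDC2: 35 genes (0.561%) were higher after carboplatin by 2-fold or more and 37 (0.593%) lower by as much. The lowest was Cyp4f18, whose enzyme inactivates leukotriene B4, at 34.0, 10.0, 60.4 and 65.8 CPM, 3.40-fold lower (1.88 to 6.66). Next was Batf, a transcription factor gene of dendritic and T cells, at 95.3, 31.6, 91.5 and 76.3, 3.02-fold lower (2.16 to 4.32). For both genes the carboplatin saline library was the lowest, and under AngII/PE the carboplatin ratios were 0.12 and -0.26. For Cyp4f18 the PBS saline library was also below both AngII/PE libraries. Bckdhb, Hspa4l, Gfra2, Rap2a, Maf1, Vezf1, Kansl2 and Rxrb followed with log2 ratios of -1.44 to -1.01. The high end was led by Trim41, a ubiquitin ligase gene, 2.26-fold higher (1.49 to 3.44; 0.25 on the log2 scale among male cells), and went on with Vps37c, Khdc4, Vac14, Capn15, Zfp740, Tbce, Odf2, Sumf1 and Eif2s3x at 0.86 to 0.95. Zfp740 reached -0.36 under one alternative.

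Carboplatin under AngII/PE was set against PBS under AngII/PE, with 37 genes (0.593%) higher by 2-fold or more and 164 (2.63%) lower by as much. With scaling by the median ratio these were 51 and 122, with 70.5% of called genes lower in place of 81.6%. The lowest was Pde4d, a cyclic AMP phosphodiesterase gene, at 199, 170, 141 and 36.7 CPM, 3.84-fold lower (2.81 to 5.34). Mefv, Agap3, Lin52, Setdb2, Nlrp1b, Sh3tc1, Clpx, Gpatch2 and Dhx57 followed at -1.76 to -1.33. Nlrp1b had a ratio of -3.52 among female and of -0.37 among male cells, and -1.12 in C1q-high cells. The 1559 genes of the shortest and of the longest span had medians of 0.19 and -0.36 here, and 5.32% of the longest were 2-fold or more lower.

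At its high end stood Prpf38a (1.29), Ryr1 (1.20, and 0.06 among male cells), Ccng1 (1.15), Ms4a4c (1.13), Sec13 (1.09), Dhx58 (1.07), Trip4 (1.02), Fam162a (1.01), Eef1e1 (0.99) and Ubfd1 (0.99). Ms4a4c, an interferon-inducible membrane gene, stood at 167, 197, 124 and 272, 2.18-fold higher (1.83 to 2.60). Ccng1, the p53 target cyclin G1, stood at 37.0, 45.4, 18.9 and 41.9, so that the PBS AngII/PE library was the low one. Dhx58 encodes LGP2, a sensor of viral RNA.

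The 2 carboplatin comparisons share no library, and their ratios had r = -0.145 across 6236 genes. At least 1.5-fold higher in both were 13 genes, lower in both 38, and opposite 95. Of these, 12 lower and 0 higher genes remained after the removal by the limits given above for ranked genes. Among the lowest were Msra (-0.83 and -0.88), Vcl (-0.70 and -0.90), Prim2, Bclaf3, Bckdhb (-1.44 and -0.65), Kctd2 and Ripk1 (-0.65 and -0.62). Msra, which repairs oxidised methionine, stood at 65.5, 37.0, 43.9 and 23.9 CPM, and Vcl, the vinculin gene, at 153, 94.0, 81.1 and 43.4. In C1q-high cells Msra had ratios of 0.00 and -0.04.

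Genes of the p53 and DNA damage response, the pathway that carboplatin engages while it is present, showed little at this time. Of 12 measured, 1 was at least 1.5-fold higher and 1 lower in each carboplatin comparison, with medians of 0.03 and -0.16. Of all genes, 4.2% were higher and 3.4% lower under saline, and 4.35% and 11.7% under AngII/PE. With 1 gene each way, no direction is read for the list. Cdkn1a, the p21 gene, stood at 186, 187, 164 and 145, and Mdm2, the p53 ubiquitin ligase gene, at 56.6, 50.1, 44.5 and 40.4. Polk (0.67) was higher and Gadd45b (-0.62) lower under saline. Under AngII/PE Ccng1 was higher and Sesn1 (-0.69) lower.

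The 34 type I interferon response genes listed summed to 2384, 2342, 2104 and 3270 CPM, highest in the carboplatin AngII/PE library. Bst2, the tetherin gene (chromosome 8, 71534255 to 71537456, minus strand), stood at 99.6, 79.3, 91.5 and 193 CPM. Rtp4 stood at 31.1, 33.1, 17.7 and 61.3, Oasl2, of the oligoadenylate synthetase family, at 34.9, 40.8, 24.4 and 71.1, and Zbp1, a sensor of Z-form nucleic acid, at 22.6, 27.7, 25 and 55.4. The carboplatin AngII/PE library was the highest for all 4 genes. For Rtp4 and Oasl2 the PBS AngII/PE library was also the lowest, below both saline libraries, which adds to the ratio between the AngII/PE libraries. Isg15 stood at 33.6, 35.4, 56.7 and 99.5, and Irf7, the transcription factor gene that amplifies the response, at 22.6, 16.9, 56.1 and 74.8, so these 2 were already higher in PBS AngII/PE.

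Binding of the factor ISGF3 to an element with paired GAAA repeats turns such genes on. A GAAA followed, after any 2 bases, by another GAAA was searched on both strands, overlaps allowed, from 250 bases before to 50 after each start in RefSeq promoters (GRCm38.p6). This motif occurs in 3.44% of 32851 promoters. Counted by gene, with a match in any of its promoters, it occurs in 4.52% of 5026 compared genes. It occurs likewise in 8 of the 14 measured interferon genes found among these promoters. A share of promoters and a share of genes are different units. The stretches around the matches are shown for 3 of the genes that were higher in that library, Bst2, Isg15 and Oas1a, which encodes an oligoadenylate synthetase, 5′ to 3′ on the gene's strand (all minus), with the matched letters in capitals. They lie at chr8:71537557-71537632, chr4:156200845-156200926 and chr5:120907500-120907575.
Bst2: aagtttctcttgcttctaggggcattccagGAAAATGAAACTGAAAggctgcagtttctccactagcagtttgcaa
Isg15: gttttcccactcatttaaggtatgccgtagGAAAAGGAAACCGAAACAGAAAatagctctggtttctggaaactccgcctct
Oas1a: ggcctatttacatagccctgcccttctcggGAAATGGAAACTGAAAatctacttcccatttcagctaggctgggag
Ddx60, which was lower in that library than in PBS AngII/PE, also held 2 matches, and Oasl2, Irf7 and Ifi47 held none in this window. A match describes the sequence and is not evidence of binding in these cells.

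With the same AngII/PE pump, 9 of 22 measured interferon genes were at least 1.5-fold higher after carboplatin and 1 (Ddx60, -0.83) lower, where 4.35% and 11.7% of all genes were. The 9 were Rtp4 (1.79), Oasl2 (1.54), Zbp1 (1.15), Ifi47 (1.09), Bst2 (1.08), Ifi27l2a (0.87), Isg15 (0.81), Oas1a (0.78) and Ly6e (0.69). The list median was 0.53, against -0.07 over all genes and 0.19 over the 1559 genes of the shortest span. It was 0.35 among female and 0.24 among male cells, and 0.24 to 0.70 over all alternatives. In C1q-high cells the median was 0.35, with 0.57 for Bst2 and 0.49 for Rtp4.

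Under saline, 0 genes were higher after carboplatin (4.2% of all genes) and 1 (Ifi204, -1.25) lower (3.4%), with a median of -0.06. For AngII/PE against saline, the medians were -0.32 after PBS, with 2 higher and 3 lower, and 0.46 after carboplatin, with 9 higher and 2 lower. Of all genes, 7.49% and 12.4% were higher and 8.98% and 24.7% lower by 1.5-fold. The comparison after carboplatin shares the carboplatin AngII/PE library with the carboplatin comparison above. Its median was 0.92 among female and -0.27 among male cells. After PBS the median was 0.44 among female cells (23 cDC2 in PBS AngII/PE) and -0.67 among male cells. The direction of the pump ratios thus differed with the sex called, but these medians rest on few cells and carry no interval. Of 4 measured interferon gamma response genes 1 or 0 were higher and none lower in each comparison, with medians of -0.15 to 0.27. Across the comparisons 4.2% to 12.4% of all genes were higher and 3.4% to 24.7% lower, and no direction is read from 4 genes.

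Other processes gave counts on both sides of the background. Of 17 glycolysis and hypoxia genes, 0 and 1 were higher and 2 and 0 lower in the carboplatin comparisons under saline and AngII/PE, with medians of -0.26 and 0.38, and 0 and 4 were higher and 4 and 1 lower in the AngII/PE comparisons after PBS and carboplatin. Of 29 immediate-early and stress genes, which respond to tissue digestion, 2, 0, 4 and 3 were higher and 0, 3, 3 and 6 lower in the 4 comparisons in the order carboplatin under saline, carboplatin under AngII/PE, AngII/PE after PBS and AngII/PE after carboplatin; their medians lay between -0.06 and 0.05. Of 14 lipid and lysosome genes, 3, 2, 4 and 2 were higher and 0, 3, 3 and 2 lower in the same order. The shares of all genes past 1.5-fold in this order were 4.2%, 4.35%, 7.49% and 12.4% higher and 3.4%, 11.7%, 8.98% and 24.7% lower.

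The cells differed among themselves, and a few carried genes of the type 1 subset. With cells thinned to 2000 UMIs, 10 of 124, 13 of 74, 7 of 104 and 3 of 79 cells held at least 3 of 12 cDC1 genes (8.06%, 17.6%, 6.73% and 3.80%). Some of the 12 are common in cDC2. Unthinned, Wdfy4 was found in 91.3% to 95.9% and Naaa in 56.7% to 82.4% of the cells, but Xcr1 in 3.85% to 6.76%. Holding 3 genes is therefore not read as a type 1 identity. Clec9a had a UMI in 24.8%, 24.3%, 6.73% and 3.80% of cells and stood at 48.5, 63.9, 23.8 and 8.23 CPM. Cadm1 stood at 132, 224, 109 and 18.7, with 25.1% to 45.2% of its UMIs in 1 cell of each library. Xcr1 stood at 10 to 17.7. More than 50% of the listed genes were held by 7, 6, 4 and 2 cells, and the most in 1 cell was 12, 12, 12 and 11 of 12. Whether these few cells belong to the type 1 subset was not tested. Without cells rich in another class's genes the Cadm1 ratio of carboplatin to PBS under AngII/PE was -1.35 in place of -2.54, and that of Clec9a was 0.18 in place of -1.53.

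Mature and cycling cells were few. At least 3 of 15 genes of mature migratory dendritic cells were held by 0 of 124, 1 of 74, 5 of 104 and 2 of 79 thinned cells; 0 of 124 allows a share of such cells at this depth of up to 2.42% (3 cells). Ccr7, the receptor for migration to lymph nodes, stood at 4.68, 6.16, 33.5 and 8.98 CPM. At least 3 of 20 G2 and M phase genes were held by 6, 4, 5 and 1 thinned cells (4.84%, 5.41%, 4.81% and 1.27%), and a Mki67 UMI by 6.45%, 8.11%, 0.96% and 1.27% (19.2%, 18.9%, 15.4% and 15.2% unthinned). These numbers are too small to order the libraries.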

How the data were processed

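RNA of cells sorted from mouse hearts was read in 4 droplet libraries, 1 per group. For each barcode and each of 32285 genes the authors deposited raw UMI counts, not normalised. Per the file headers the software was Cell Ranger 7.1.0, but version 3 per the labels' protocols, which also give mm10 as the reference. Counting of intronic reads is not stated in the sources. The sources also differ on the reagent kit (version 3.1 and version 1) and on Seurat (3.2.3 per the labels' protocols, 4 per the submitters' processing notes).

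UMI counts were summed over the cDC2 of each library and divided by their total (1298538 to 2349874 UMIs) to give CPM. Ratios carry exact conditional binomial intervals and shares exact Clopper-Pearson intervals (95%). PCR copies are removed by UMIs, so these cover counting error. No doublets were removed; an alternative with stricter limits (under 20000 UMIs, no 10 per 10000 of another class's genes) took their place. Named genes were the 10 highest and 10 lowest ratios per comparison, and the first 8 shared by both like comparisons. They were taken from genes with 20 CPM or more on average. In the higher library at least 10% of cells had a UMI, and no cell had over 10% of the UMIs. The level over all cDC2 of the 4 libraries together was no more than 3 times below that of any other cell class. Rule genes, sex-linked, ribosomal, mitochondrial, haemoglobin and unnamed genes were left out, and some named genes are not reported here. The members, the 34 gene lists and the tests were chosen with earlier results of these data known. Endothelial-like cells passed the filters, held at least 4 of 10 endothelial genes, had under 10 C1q UMIs per 10000 and were not cDC2. Gene positions are from GENCODE (32158 IDs matched). The scripts were tested on simulated data. Python 3.11.15, numpy 2.4.6, scipy 1.17.1, pandas 2.3.3 and matplotlib 3.10.9 were used.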

Additional observations from a re-analysis of the deposited data

Results flagged for a closer look

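Outside the filters, further barcodes met the cDC2 rule. These were 45 in PBS saline, 46 in carboplatin saline, 14 in PBS AngII/PE and 9 in carboplatin AngII/PE, of which 43, 40, 10 and 8 were over the limits on UMIs or genes. Their median UMIs were 39422, 35996, 31718.5 and 35150. Without those limits the ratio of cDC2 shares for AngII/PE against saline was 0.767 after PBS (0.607 to 0.969) and 0.487 after carboplatin.

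A pair of chemokine genes went opposite ways under the same contrast, and the difference was not tested. Ccl5 had a log2 ratio of carboplatin to PBS of 1.66 under saline and of -1.04 under AngII/PE. In carboplatin saline 28 of its 35 UMIs came from 1 cell, and in PBS AngII/PE 47 of 58. Cxcl2 had a log2 ratio of AngII/PE to saline of -1.39 after PBS and of 1.05 after carboplatin. In PBS saline 78 of its 105 UMIs came from 1 cell, and in carboplatin AngII/PE 57 of 141.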

How the results depend on the processing

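No paired analysis was possible because each group has 1 library. For the same reason no library could be left out. Ratios of cDC2 shares that moved outside the counting interval of the reported ratio were 1.05 for carboplatin under saline with 3 of 8 genes required (direction turned), 0.75 and 0.674 among female cells for carboplatin under AngII/PE and for AngII/PE after PBS, and 0.44 (3 of 8 genes), 0.404 and 0.461 (cells thinned to 2000 and 5000 UMIs) for AngII/PE after carboplatin. Counts of genes past 2-fold differed widely between settings. They are given below as higher and lower, in the order carboplatin under saline, carboplatin under AngII/PE, AngII/PE after PBS and AngII/PE after carboplatin, where they moved by over 1.5 times. With no minimum level they were 1883 and 2459, 1455 and 3105, 2242 and 2878, and 1777 and 3799. With a mean of at least 50 CPM they were 9 and 7, 11 and 43, 66 and 55, and 88 and 239. With doublet limits they were 272 and 380, 150 and 498, 323 and 415, and 1017 and 1520. Among female cells they were 159 and 104, 309 and 431, 326 and 436, and 321 higher in the last. Among male cells they were 170 and 233, 98 and 325, 247 lower in the third, and 362 higher in the last. The mean of per-cell levels gave 63 higher, 67 and 280, and 316 higher in the first, second and last. Without upper limits there were 16 higher in the first and 101 lower in the second, and with scaling by the median ratio 299 and 352 in the last. The cause was not tested.

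Shares of cells with 3 genes without thinning were 19.2%, 20.3%, 24% and 34.2% for mature dendritic cell genes, 56.8%, 63.5%, 47.1% and 50.6% for cDC1 genes, and 14.4% and 12.5% for G2 and M genes in PBS saline and PBS AngII/PE. With 2 genes and thinning they were 5.65% and 9.46% in the saline libraries and 8.86% in carboplatin AngII/PE for mature genes, and 33.1%, 39.2%, 22.1% and 20.3% for cDC1 genes.

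Among genes named by rank at 2-fold or more and list medians, directions turned for Nrg2 (0.035, AngII/PE after PBS, male cells) and for 16 values of list medians that were past 1.5-fold. Other genes and medians of smaller size turned too, and the following are examples, not a full count. Among female cells the direction of AngII/PE turned after PBS for Fkbp5 (-0.08) and H2-DMb2 (-0.02) and for the smaller type I interferon median (0.44), which after carboplatin turned among male cells (-0.27). For carboplatin it turned for Zfp740 under saline (-0.36, doublet limits) and for Clec9a under AngII/PE (0.18, without cells of other classes). Mature dendritic cell genes (4 measured; 1.08 for carboplatin under saline) gave -0.883 with doublet limits, -1.261 without upper limits and -0.089 without cells of other classes, and for AngII/PE after PBS -0.471 (5 of 8 genes) and -0.433 (no upper limits). Classical monocyte genes for carboplatin under AngII/PE gave -0.132 (5 of 8 genes) and -1.357 (doublet limits). B cell genes for carboplatin under saline gave -0.015 (5 of 8 genes), -0.134 (C1q under 5 per 10000), -0.86 (doublet limits), -0.877 (female) and -0.159 (male). Chemokines gave -0.112 (5 of 8 genes), -0.216 (no upper limits) and -0.236 (without cells of other classes) for AngII/PE after PBS, and -0.069 (female) after carboplatin. For genes named by rank, 875 alternative values stayed within the counting interval of the reported ratio and 148 more moved outside it. Medians of very short lists with no finite ratio in a subset of cells were not computed.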
